A study of Homo sapiens with 10 samples.

Results

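Chromosome 19 carries the largest assembly of zinc finger genes of the human genome, and the transcripts of these genes were followed in CH157-MN (an established cell line from a human meningioma) with and without an antibody-drug conjugate. The members were the protein-coding genes of chromosome 19 whose symbol is ZNF followed by a digit. The table held 249 of them among 58735 genes. The rule used no measured value, although it was chosen with earlier results of these data known. A transcription factor column of the table placed 239 of the 249 in the C2H2 family. The PBS group (5 libraries) received phosphate-buffered saline. The ADC group (5 libraries) received 100 nM of a humanised antibody against the somatostatin receptor SSTR2, loaded with the tubulin inhibitor MMAF, and was harvested 3 days later. The labels give the harvest day for the treated cells alone. All libraries come from a single cell line, and the labels do not say that replicates were separate cultures, so p-values measure only the spread between these libraries, which may be technical.

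A C2H2 zinc finger is a short fold held together by a zinc ion between a pair of cysteines and a pair of histidines, and each finger can contact a few bases of DNA. Most ZNF genes of chromosome 19 also encode a KRAB box, a domain that recruits the corepressor TRIM28 (KAP1) and, through it, the histone methyltransferase SETDB1 and HP1 proteins. KRAB zinc finger proteins are best known for silencing transposable elements, and their genes arose by repeated local duplication, so neighbours are often close relatives. In open reading frames taken from the annotated transcripts, the members had a median of 12 finger matches and at most 36. A match to the KRAB core pattern was found in 201 members and not in 48, and a missing match says only that the pattern was not in these frames.

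Of the 249 members, 212 had enough counts to be tested, and 37 did not, with 13 of the 37 at 0 in all libraries and at most 21 counts in any library for the others. After ADC, 2 members rose (ZNF580 and ZNF677), 10 fell (ZNF562, ZNF586, ZNF132, ZNF561, ZNF44, ZNF324B, ZNF569, ZNF45, ZNF772 and ZNF549) and 200 were not called. Without PBS replicate 3, or without ADC replicate 5, only 6 fell, and without PBS replicate 4 or 5 or ADC replicate 1, 2 or 5 only 1 rose. The called share was 5.66% of tested members, where 20.8% of all tested genes were called at the same threshold (adjusted p of 0.05, edgeR's quasi-likelihood test with Benjamini-Hochberg adjustment over all genes). Higher calls made up 0.943% of members and 10.8% of all genes, and lower calls 4.72% of members and 10% of all genes. Fold changes are given on the log2 scale, ADC over PBS. Those of called members ran from 0.25 to 0.66 in absolute size. In bulk RNA, fewer cells that express a gene and less RNA per cell cannot be told apart.

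The promoters of 4 nearby genes are printed here because ZNF561 and ZNF562, which both fell, lie among them and all 4 share an uncommon stretch of letters. Picked in this way, they do not show how members in general are related in sequence. ZNF560 and ZNF426 lie between them and are not printed. The windows hold the 250 bases before and the first 30 bases after the RefSeq start (GRCh38.p14), written on the gene's strand. All 4 genes lie on the minus strand, with windows at chr19:9435544-9435823 for ZNF266, chr19:9584475-9584754 for ZNF121, chr19:9621203-9621482 for ZNF561 and chr19:9675071-9675350 for ZNF562. Capitals mark matches, on either strand, to a cyclic AMP response element (TGACGTCA), an ETS core (CGGAAG), a YY1 site (GCCATCTT), an NF-Y site (CCAAT) or an SP1 site (GGGCGG). NRF1 and Kaiso sites were also searched and had 0 matches in the windows printed here. The motifs were chosen after the promoters and values had been seen.
ZNF266: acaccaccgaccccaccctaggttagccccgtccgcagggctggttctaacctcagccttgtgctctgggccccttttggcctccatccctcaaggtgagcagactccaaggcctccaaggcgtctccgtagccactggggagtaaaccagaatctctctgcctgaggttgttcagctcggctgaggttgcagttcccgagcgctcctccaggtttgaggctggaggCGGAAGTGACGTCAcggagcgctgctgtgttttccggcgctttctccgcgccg
ZNF121: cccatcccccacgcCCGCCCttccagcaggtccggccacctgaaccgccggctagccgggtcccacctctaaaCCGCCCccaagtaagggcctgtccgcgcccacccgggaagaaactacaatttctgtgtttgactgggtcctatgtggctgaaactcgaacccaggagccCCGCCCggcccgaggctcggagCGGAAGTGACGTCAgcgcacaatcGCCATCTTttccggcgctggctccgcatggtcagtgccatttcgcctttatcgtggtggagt
ZNF561: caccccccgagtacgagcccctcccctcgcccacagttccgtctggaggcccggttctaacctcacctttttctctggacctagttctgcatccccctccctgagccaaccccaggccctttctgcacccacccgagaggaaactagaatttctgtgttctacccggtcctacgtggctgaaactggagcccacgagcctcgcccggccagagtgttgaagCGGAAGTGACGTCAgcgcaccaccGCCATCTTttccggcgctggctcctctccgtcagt
ZNF562: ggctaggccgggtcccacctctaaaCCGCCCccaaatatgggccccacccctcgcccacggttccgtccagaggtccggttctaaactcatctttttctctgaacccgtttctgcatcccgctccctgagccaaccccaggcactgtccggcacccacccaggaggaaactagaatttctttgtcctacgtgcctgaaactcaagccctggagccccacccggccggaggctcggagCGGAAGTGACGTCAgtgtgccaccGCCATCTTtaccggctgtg

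Each of the 4 windows holds the ETS core and the cyclic AMP response element as 1 run, with CGGAAG directly followed by TGACGTCA and no overlap. This run begins 23 bases before the start in ZNF266, 56 in ZNF121, 29 in ZNF561 and 13 in ZNF562. It was found in 0.0623% of 27305 promoter windows of the same length and in 1.84% of the 217 members with a window, which are these 4 genes. The windows of ZNF561 and ZNF562 were identical at 69.9% of aligned columns, those of ZNF121 and ZNF561 at 62.5%, and those of ZNF266 and ZNF561 at 60.8%. The other pairs were lower, with ZNF266 and ZNF562 at 53.8%, ZNF121 and ZNF562 at 51.9%, and ZNF266 and ZNF121 at 51.3%. A YY1 match followed the run in ZNF121, ZNF561 and ZNF562. Across the 217 member windows the ETS core was present in 59.0% and the NF-Y site in 53.9%. The shares were 43.2% and 43.7% of 213 promoters of ZNF genes on other chromosomes. They were 25.2% and 35.8% of 14896 protein-coding promoters, and 19.2% and 34.7% of all windows. A match is a description of the letters and does not show that a factor binds.

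The levels of these 4 neighbours are given in CPM, the gene's count scaled to the library's total with TMM factors. ZNF562, a KRAB zinc finger gene with 6 finger matches (ENSG00000171466, hg38 chromosome 19, 9641808 to 9675086), read 32.0, 30, 36.3, 32.9 and 30.1 CPM in PBS replicates 1 to 5 and 26.8, 24.4, 26.5, 26.9 and 24.8 CPM in ADC replicates 1 to 5. Every ADC library lay below every PBS library, and the gene fell by 0.32 (SE 0.06, adjusted p = 0.00047). The gene shares 18.9% of its exonic bases with a gene on the other strand, and the strand setting of the counting is not given in the sources used here.

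ZNF561 (ENSG00000171469, 9604680 to 9621399) read 30.2, 24.2, 25.3, 28.5 and 25.9 CPM under PBS and 20.6, 23.3, 22.6, 25.4 and 20.2 CPM after ADC. The groups overlapped through ADC replicate 4, and the gene fell by 0.26 (SE 0.07, adjusted p = 0.012). Without PBS replicate 1 its adjusted p was 0.051. ZNF121 lies next to ZNF561 and stood at 18.2 ± 0.904 CPM under PBS and 15.7 ± 1.58 CPM after ADC (SD, n = 5 each), a difference of -0.21 (SE 0.08) that was not called (adjusted p = 0.06). ZNF266 stood at 17.2 ± 1.72 and 15.6 ± 1.5 CPM and had a difference of -0.14 (SE 0.09, adjusted p = 0.27), not called. ZNF426, which lies between ZNF266 and ZNF121, was at 20.1 CPM in both groups. Its window holds the cyclic AMP response element without the run of 2 sites. The element was found in 7 member windows (3.23%), against 2.59% of protein-coding promoters and 4.69% of those of ZNF genes on other chromosomes. The other members with it, ZNF543 (-0.22, SE 0.21) and ZNF547 (0.15, SE 0.39), were not called. Outside the members, 8 other protein-coding genes carry the same run in their window, and of these KYAT1 (0.52, SE 0.11) and NAT14 (0.24, SE 0.08) rose, 0 fell, and the median was -0.04.

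The clearest change of any member was in ZNF580, a compact gene with 3 finger matches and no match to the KRAB core (ENSG00000213015, chromosome 19, 55635016 to 55643469, plus strand). It read 7.28, 7.82, 6.64, 6.26 and 7.83 CPM under PBS and 11.7, 11.2, 13.3, 9.48 and 11.2 CPM after ADC. Every ADC library lay above every PBS library, and the gene rose by 0.66 (SE 0.11, adjusted p = 2.4e-05). The call held under all 20 other settings tried, with log2 fold changes from 0.58 to 0.73.

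ZNF581 lies beside ZNF580 on the same strand, and their annotated spans overlap. It shares 23.4% of its exonic bases with genes on its strand, and ZNF580 shares 15.1%, so reads may be divided between them. ZNF581 read 11.4, 15.9, 11.5, 10.4 and 11.5 CPM under PBS and 13.1, 13.6, 14.8, 13.9 and 13.8 CPM after ADC. It was not called (0.19, SE 0.10, adjusted p = 0.19), but PBS replicate 2 lay above all other libraries, and without it the difference was 0.31 at adjusted p = 0.014.

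ZNF677, a KRAB gene with 10 finger matches (ENSG00000197928, 53235381 to 53254898, minus strand), read 9.37, 8.62, 10, 7.89 and 8.51 CPM under PBS and 10.9, 10.9, 10.1, 10.9 and 10.9 CPM after ADC. The groups were separated by a narrow gap, and the gene rose by 0.27 (SE 0.10, adjusted p = 0.04). The call was lost under 9 of 20 other settings, 7 of them the removal of 1 library (PBS replicate 2, 4 or 5, or ADC replicate 1, 2, 4 or 5), with adjusted p up to 0.1.

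The promoters of the 2 members that rose are shown for comparison with those of the 4 neighbours, in the same layout, at chr19:55640752-55641031 for ZNF580 and chr19:53254794-53255073 for ZNF677. RefSeq lists 3 start windows for ZNF580 and 2 for ZNF677, and the first of each is printed.
ZNF580: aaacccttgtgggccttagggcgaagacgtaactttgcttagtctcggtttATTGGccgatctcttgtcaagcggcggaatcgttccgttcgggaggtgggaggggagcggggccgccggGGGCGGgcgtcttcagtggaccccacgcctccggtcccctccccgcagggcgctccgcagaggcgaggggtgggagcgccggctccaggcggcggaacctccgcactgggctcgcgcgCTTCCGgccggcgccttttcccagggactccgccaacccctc
ZNF677: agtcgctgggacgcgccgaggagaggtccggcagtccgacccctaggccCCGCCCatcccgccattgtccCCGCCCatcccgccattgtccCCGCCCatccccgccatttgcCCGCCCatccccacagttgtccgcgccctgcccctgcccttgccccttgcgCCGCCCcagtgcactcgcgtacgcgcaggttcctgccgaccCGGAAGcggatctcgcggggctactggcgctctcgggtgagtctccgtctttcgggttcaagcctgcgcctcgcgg

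Both windows hold an ETS core and SP1 matches, 1 in ZNF580 and 5 in ZNF677, and neither holds a cyclic AMP response element. The pair was identical at 48.0% of aligned columns, and neither passed 49.5% with any of the 4 neighbours above. The SP1 match was present in 67.3% of member windows, in 59.6% of promoters of ZNF genes on other chromosomes and in 58.5% of protein-coding promoters.

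**Figure D1:**
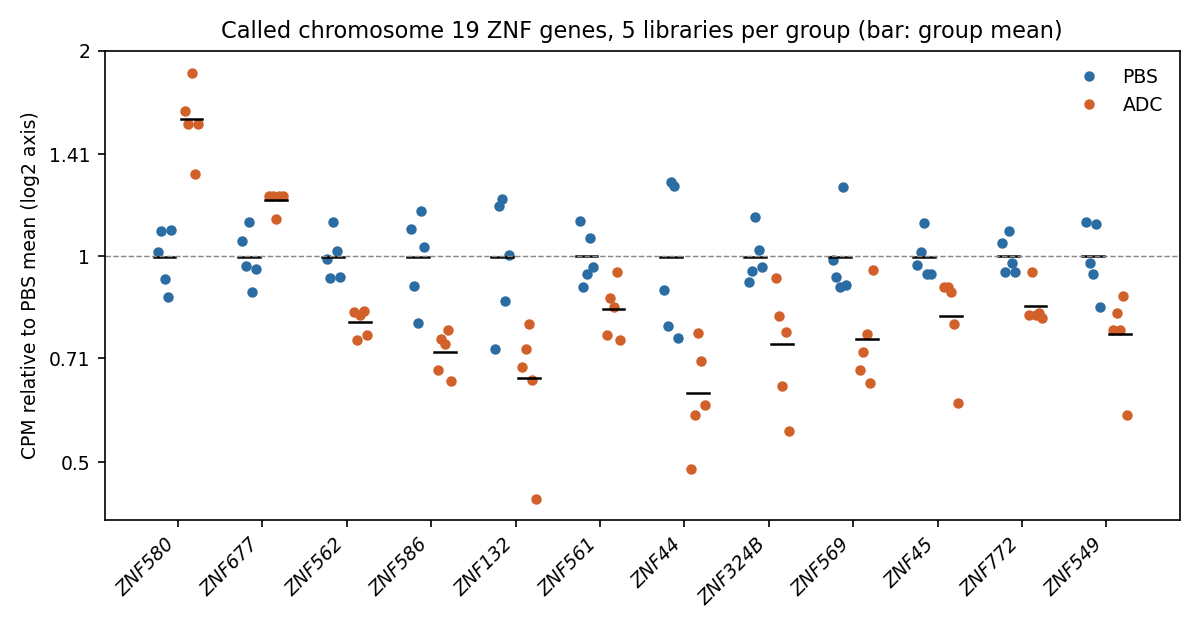
CPM of the 12 called members in each library, divided by the gene's PBS mean, on a log2 axis (blue points, 5 PBS libraries; orange points, 5 ADC libraries; black bars, group means). The ADC points of ZNF580, ZNF677, ZNF562, ZNF586, ZNF45 and ZNF772 do not overlap the PBS points of the same gene, while those of ZNF132, ZNF44 and ZNF324B vary widely within the group.

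Of the other members that fell, ZNF586, ZNF132, ZNF324B, ZNF772 and ZNF549 lie in the cluster at the end of the chromosome, and each holds the KRAB core match. That cluster is the largest, with 56 of the 212 tested members, and 10% of all tested genes fell. ZNF586 (ENSG00000083828, 57769655 to 57819939) read 7.49, 6.19, 5.45, 7.96 and 7.04 CPM under PBS and 4.66, 5.17, 5.09, 5.33 and 4.49 CPM after ADC. All ADC values lay below all PBS values, and the gene fell by 0.46 (SE 0.12, adjusted p = 0.0074), a call kept under all 20 other settings.

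ZNF132 (ENSG00000131849, 58432814 to 58440222) read 3.66, 5.93, 6.06, 4.31 and 5.03 CPM under PBS and 3.44, 3.66, 3.98, 3.30 and 2.21 CPM after ADC. PBS replicate 1 lay within the ADC range, and the gene fell by 0.59 (SE 0.17, adjusted p = 0.011), which was also kept under all 20. ZNF324B (ENSG00000249471, 58451604 to 58457833) read 5.86, 6.08, 7.29, 6.51 and 6.15 CPM under PBS and 5.93, 5.22, 4.12, 4.95 and 3.54 CPM after ADC. It fell by 0.42 (SE 0.14, adjusted p = 0.026), with ADC replicate 1 inside the PBS range. Its adjusted p rose to at most 0.08, past the threshold, when PBS replicate 3, ADC 3 or ADC 5 was left out. Its close relative and neighbour ZNF324 stood at 9.87 ± 0.75 CPM under PBS and 8.26 ± 0.789 CPM after ADC, a difference of -0.26 (SE 0.10, adjusted p = 0.07) that missed the threshold. Of the 75-base transcript windows, 9.36% of those of ZNF324B and 30.3% of those of ZNF324 also occur in some other gene, not necessarily in each other. ZNF324 shares 25.1% of its exonic bases with genes on its strand, and its span overlaps that of ZNF446, while ZNF324B shares 0%. Reads from such stretches may be assigned to another gene.

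ZNF772 (ENSG00000197128, 57466663 to 57477570) went from 13.3 ± 0.828 to 11.2 ± 0.768 CPM and fell by 0.25 (SE 0.09, adjusted p = 0.042), with groups that did not overlap although the highest ADC and the lowest PBS library both rounded to 12.6 CPM. ZNF549 (ENSG00000121406, 57527325 to 57557542) went from 6.15 ± 0.733 to 4.74 ± 0.676 CPM and fell by 0.37 (SE 0.13, adjusted p = 0.042). Both calls lie at the edge of the threshold, and each was lost under 10 of 20 other settings, at adjusted p up to 0.11 for ZNF772 and 0.12 for ZNF549. In each case 7 of the losing settings left out a single library: PBS 1, 3 or 4 or ADC 1, 3 or 5 for both genes, ADC 4 for ZNF772 and PBS 2 for ZNF549.

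The remaining members that fell are KRAB genes spread over other clusters. ZNF44 (ENSG00000197857, 12224686 to 12294887) read 2.74, 2.43, 3.95, 3.89 and 2.33 CPM under PBS and 1.5, 1.8, 2.37, 2.16 and 1.86 CPM after ADC, from 52 to 116 counts per library. It fell by 0.66 (SE 0.21, adjusted p = 0.022), and only ADC replicate 3 reached the PBS range. Its call was lost without PBS replicate 3 or 4 or ADC replicate 1. ZNF569 (ENSG00000196437, 37411155 to 37469275) went from 6.90 ± 1.05 to 5.23 ± 0.822 CPM and fell by 0.40 (SE 0.13, adjusted p = 0.027), a call lost without PBS replicate 4 or ADC replicate 1, 2 or 4. ZNF45 (ENSG00000124459, 43912629 to 43935278) read 13.8, 14.4, 15.9, 13.4 and 13.4 CPM under PBS and 12.8, 12.8, 12.6, 11.3 and 8.66 CPM after ADC. The groups did not overlap, ADC replicate 5 was the lowest, and the gene fell by 0.28 (SE 0.10, adjusted p = 0.041). The call of ZNF45 was lost with scaling to library size alone and without PBS replicate 1, 2 or 3 or ADC replicate 4 or 5, at adjusted p up to 0.15.

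Among the 200 members that were not called, 129 had a log2 fold change below 0, and the estimates ran from -1.20 (ZNF563) to 0.70 (ZNF554). Both extremes are weakly expressed: ZNF554 had 5 to 24 counts per library, and ZNF563 stood at 0.489 CPM under PBS and 0.209 CPM after ADC. Over all 212 tested members the median log2 fold change was -0.08, with quartiles of -0.21 and 0.08, and 65.6% of estimates lay below 0. The same median was 0.00 over all 14504 tested genes, with 50.5% below 0. The groups did not overlap for 10 members, 7 lower and 3 higher after ADC, or 4.72% of those tested, against 14.2% of all genes. At an unadjusted p under 0.05 there were 28 members (24 lower, 4 higher), or 13.2%, against 32.1% of all genes.

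**Figure D2:**
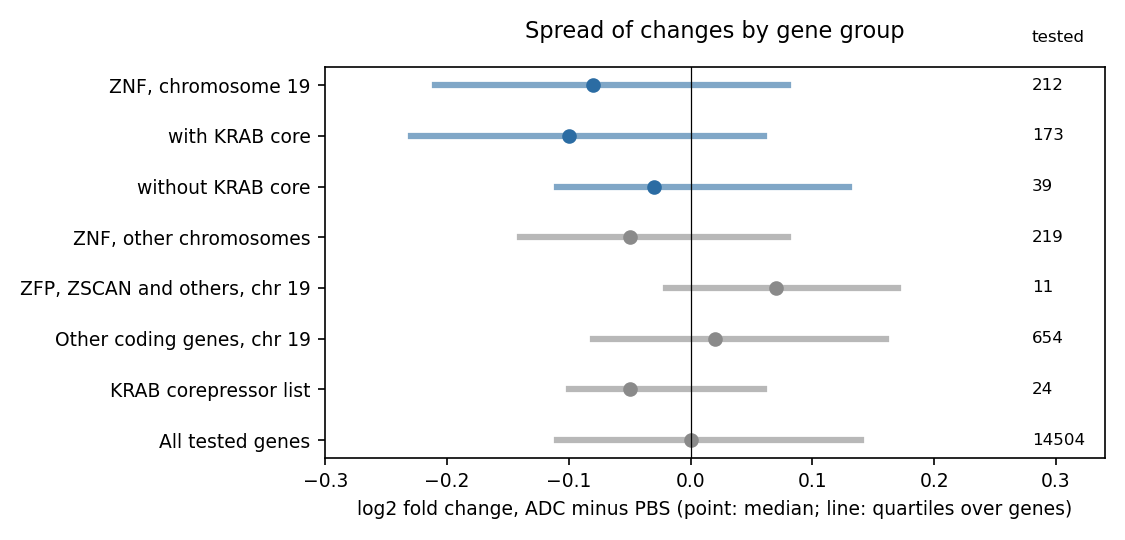
Median (point) and quartiles (line) of log2 fold changes over the tested genes of each group, with the number tested at the right. The chromosome 19 ZNF genes centre at -0.08 and those of other chromosomes at -0.05, with all tested genes at 0.00.

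Of 219 tested ZNF genes of other chromosomes 2 rose, 15 fell and 202 were not called, or 7.76% called, with a median of -0.05 and a median level of 10.5 CPM. Of their estimates 62.6% lay below 0, near the 65.6% of the members. The other protein-coding genes of chromosome 19 had 98 higher and 58 lower calls among 654 tested, or 23.9%, and a median of 0.02. Of 20 genes of chromosome 19 chosen by other names (ZFP, ZSCAN, ZBTB, ZIK1 and the like) 11 were tested, 0 were called by edgeR, DESeq2 or limma-voom, and 1 had an unadjusted p under 0.05 in edgeR. Their median was 0.07, and the list includes ZFP36, whose fingers are of the CCCH and not the C2H2 type. These group values are descriptions, and no test of a difference between gene groups was made.

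Expression was low for most members, and at low counts the SE is wide. Of those tested, 23 had a mean under 1 CPM, 77 had 1 to 4, 74 had 4 to 10 and 38 had at least 10, with a median of 4.18 CPM against 20.5 over all tested genes. The median SE of the log2 fold change was 0.16 for members and 0.08 for all genes. Under 1 CPM, 0 of the 23 were called by edgeR, DESeq2 or limma-voom (1 at an unadjusted p under 0.05 in edgeR), against 3.56% of all genes at that level. At 1 to 4 CPM, 1.30% of members were called, against 9.77% of all genes at that level. At 4 to 10 CPM the shares were 9.46% and 17%, and at 10 CPM or more they were 10.5% and 28%. The last level does not set genes of equal expression side by side. There members had a median of 15.7 CPM and a median SE of 0.09, against 49.9 CPM and 0.05 for all genes. For ZNF genes of other chromosomes the called shares at the 4 levels, from low to high, were 6.67%, 5.88%, 3.45% and 10.7%. At 4 to 10 CPM members had 2 higher and 5 lower calls, or 2.7% and 6.76% of 74. All genes at that level had 205 higher and 57 lower, or 13.3% and 3.7% of 1542, so the lower share was larger in members there.

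**Figure D3:**
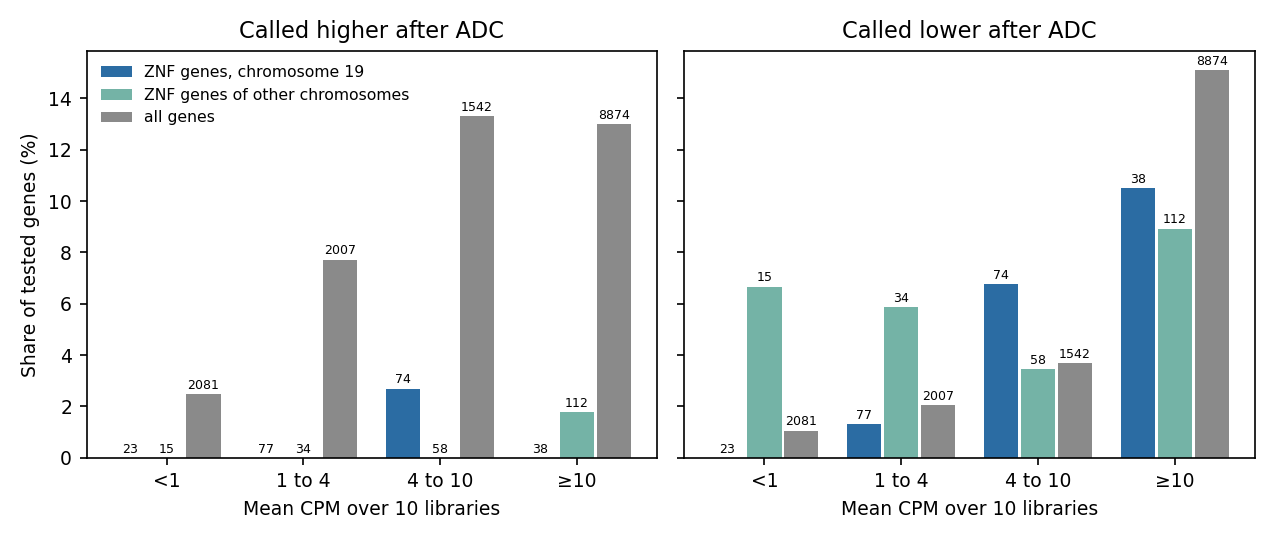
Share of tested genes called higher (left) and lower (right) after ADC, by mean CPM over the 10 libraries. Numbers above the bars are the genes tested. At 10 CPM or more, 0 of 38 members were called higher, against 1.79% of 112 ZNF genes of other chromosomes and 13% of all genes.

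The most abundant members per kilobase of transcript were ZNF146, ZNF787, ZNF317, ZNF581 and ZNF428, and 0 of these 5 were called by edgeR, DESeq2 or limma-voom, with 0 at an unadjusted p under 0.05 in edgeR. With 5.66% of tested members and 20.8% of all genes called, 0 of 5 does not set them apart from other members. On the scale of CPM per kilobase, the PBS levels were 20.2 for ZNF146, 14.6 for ZNF787, 8.85 for ZNF317, 6.98 for ZNF581 and 4.67 for ZNF428, and the tested members had a median of 0.795. ZNF146, which encodes a protein made almost entirely of fingers, stood at 83.5 ± 5.65 CPM under PBS and 79.1 ± 3.36 CPM after ADC (-0.08, SE 0.05, adjusted p = 0.25). ZNF787 had a log2 fold change of -0.04 (SE 0.06), but with GC and length trends removed it was called lower, at -0.19 and adjusted p = 0.002. ZNF317 had a log2 fold change of 0.01 (SE 0.05) and ZNF428 one of 0.09 (SE 0.11), the latter with 27.6% of its exonic bases on the other strand of another gene.

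Members with a known role were read whatever their values, and 0 of the 9 tested were called by edgeR, DESeq2 or limma-voom, with 1 (ZNF420) at an unadjusted p under 0.05 in edgeR. With 5.66% of tested members and 20.8% of all genes called, 0 of 9 does not set these genes apart from other members. ZNF91, a primate gene that restrains SVA retrotransposons, had 31 finger matches and stood at 4.46 ± 0.535 CPM under PBS and 4.41 ± 1 CPM after ADC (-0.01, SE 0.15). ZNF274, which recruits SETDB1 to zinc finger gene bodies, stood at 18.5 ± 2.08 and 20.6 ± 2.41 CPM (0.15, SE 0.09, adjusted p = 0.23). ZNF473, a component of histone pre-mRNA processing, stood at 7.17 ± 1.07 and 8.35 ± 1.3 CPM (0.22, SE 0.12, adjusted p = 0.22).

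ZNF420, a KRAB protein reported to restrain p53, stood at 5.10 ± 1.08 CPM under PBS and 3.93 ± 0.221 CPM after ADC (-0.37, SE 0.15, adjusted p = 0.072). Without PBS replicate 2, its lowest PBS library, ZNF420 passed at adjusted p = 0.026. ZNF350, a partner of BRCA1, had a log2 fold change of -0.23 (SE 0.15) and ZNF382 one of -0.09 (SE 0.17). ZNF675 (0.07, SE 0.15), the imprinted gene ZNF331 (-0.07, SE 0.18) and ZNF507 (-0.05, SE 0.07) gave values within 1 SE of 0. ZNF536, a gene of the nervous system, had 0 counts in 9 libraries and 2 in ADC replicate 1 and was not tested.

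By position, the 249 members fell into 16 groups when a gap of over 1 Mb between starts began a new group, and 9 groups with at least 5 tested genes held 238 members. Of these 9, 8 had a median log2 fold change below 0. The calls per group are few and stand beside 10.8% higher and 10% lower over all tested genes. Over all tested members these shares were 0.943% and 4.72%. The group from 11483427 to 12640098 (16 tested) had the median -0.16, with 14 of 16 estimates below 0 and 1 call, ZNF44. In the group from 19668796 to 24129961, which holds ZNF91, 20 of 27 estimates were below 0. There 0 genes were called by edgeR, DESeq2 or limma-voom, and 2 had an unadjusted p under 0.05 in edgeR. The smallest p was that of ZNF101, whose groups did not overlap (10.9 ± 0.607 and 9.29 ± 0.765 CPM, -0.23, SE 0.09, adjusted p = 0.089). In the group from 51571298 to 53580269, 28 of 37 were below 0, the median was -0.10, and the single call was the rise of ZNF677.

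The group from 43525497 to 45076588 was the exception, with a median of 0.01 and 10 of 22 estimates below 0, and ZNF45 was its only call. The largest group, from 55476332 to 58481230, had 56 tested members, a median of -0.04, 5 genes that fell and 1 that rose, ZNF580. Other protein-coding genes inside that span had a median of 0.05, with 2 higher and 2 lower calls among 15. In the group from 7069444 to 9793180, ZNF561 and ZNF562 were the only calls among 12 tested members, and the 21 other genes there gave 4 higher and 0 lower calls. ZNF792 (0.24, SE 0.12, adjusted p = 0.17) had the smallest p of the 5 members from 34677639 to 34964049, whose median was -0.02.

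**Figure D4:**
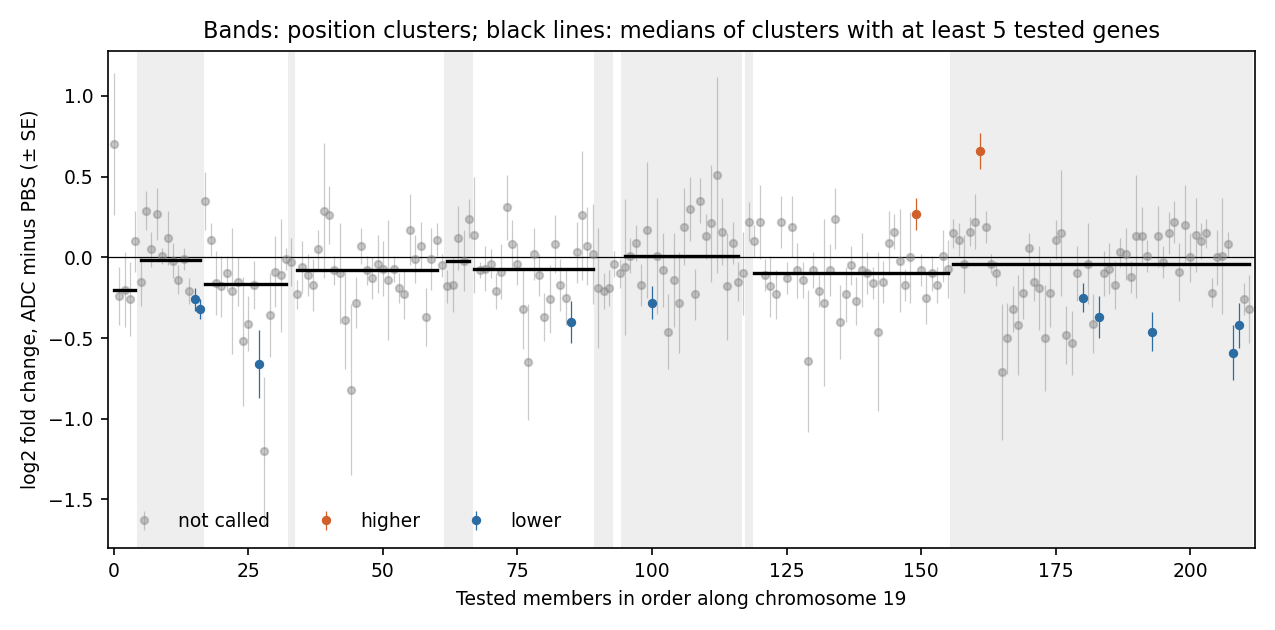
Log2 fold change (ADC minus PBS, with SE) of the 212 tested members in their order along chromosome 19, with orange for higher, blue for lower and grey for not called. Grey and white bands mark the position groups, and the black lines are the medians of the 9 groups with at least 5 tested genes, from -0.20 to 0.01.

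The log2 fold changes of adjacent members were compared as a description across genes. Spearman's correlation between the log2 fold changes of adjacent tested members was 0.32 over 197 pairs. It was 0.26 over 151 pairs of members with at most 5% of their windows shared with another gene. Over 653 adjacent pairs of other protein-coding genes of chromosome 19 it was 0.01. The pairs were defined differently: member pairs lay within a position group, while the 653 had no distance limit and skipped the members between them. All pairs share the same 10 libraries. The longest runs of estimates below 0, picked for their values, were 14 genes from ZNF823 to ZNF791 (median -0.18, 1 called) and 10 genes from ZNF548 to ZNF530 (median -0.21, 2 called, 5 at an unadjusted p under 0.05).

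Members with the KRAB core match, 173 of the 212 tested, held all 10 of the genes that fell, 1 that rose and 162 not called. Their median was -0.10. Lower calls made up 5.78% of them and 10% of all tested genes, and calls in either direction 6.36% and 20.8%. The 39 tested members without the match held 1 that rose (ZNF580) and 38 not called, with a median of -0.03, and DESeq2 called 2 of them lower (3 at an unadjusted p under 0.05 in edgeR). The members without the match also had a higher median level (8.68 against 3.92 CPM) and a higher GC content of the longest transcript (51.2% against 41.8%), and the part of these in the difference was not tested. Across the 212 tested members, Spearman's correlation between the number of fingers and the log2 fold change was -0.01. The same correlation was 0.18 with GC content, -0.09 with gene length and 0.08 with mean level.

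The partners of KRAB proteins were read from a list of 24 corepressor genes, all tested. Of these 2 rose, 6 fell and 16 were not called, or 33.3% called, with a median of -0.05. The called share was 20.8% over all tested genes and 28% over those at 10 CPM or more, as all 24 were. TRIM28 itself, which lies on chromosome 19 just beyond the last member (58544091 to 58550722), read 522, 577, 494, 494 and 563 CPM under PBS and 457, 457, 444, 485 and 473 CPM after ADC. The groups did not overlap, and TRIM28 fell by 0.20 (SE 0.04, adjusted p = 0.00037), a call kept under all 20 other settings. CBX5, which encodes HP1 alpha, went from 202 ± 4.74 to 176 ± 6.71 CPM and fell by 0.20 (SE 0.03, adjusted p = 6.7e-05).

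Smaller decreases were called for UHRF1 (-0.10), FAM208A, the TASOR subunit of the HUSH complex (-0.13), MTA2 (-0.09) and MORC2 (-0.14), and each of these 4 calls was lost with scaling to library size alone. Single libraries whose removal ended the call were PBS 4 or 5 or ADC 1 for UHRF1, PBS 1, 3 or 4 or ADC 2 or 5 for FAM208A, PBS 2, 3, 4 or 5 or ADC 1, 3 or 4 for MTA2, and PBS 1, 4 or 5 or ADC 1, 3, 4 or 5 for MORC2. CHD3, a helicase of the NuRD complex that binds TRIM28, rose by 0.18 (SE 0.04, adjusted p = 0.00087), and SMARCAD1 rose by 0.16 (SE 0.05, adjusted p = 0.037), a call lost without PBS 1, 2, 4 or 5 or ADC 1 or 3. SETDB1 stood at 21.8 ± 0.884 and 22.6 ± 1.26 CPM and was not called (0.05, SE 0.07). These corepressor genes are expressed well above the members, with a median of 117 CPM.

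Summed over all 249 members, expression was 1418 to 1497 CPM in PBS libraries and 1359 to 1432 CPM after ADC, so the sums overlapped, and members took 0.135% to 0.148% of counts. Library totals ran from 28262162 to 36463724 counts. An approximate upper confidence limit of 3 counts was used for an observed 0, which equals 0.082 to 0.106 CPM. Such limits cover counting error only and take each count as a separate fragment. Of the 10 meningioma and arachnoid markers, VIM was abundant at 3400 ± 123 CPM under PBS, and SLC1A3 (28 and 34.6 CPM) and S100A4 (1.15 and 4.04 CPM) were the only others at 1 CPM or more and were called higher. SSTR2, the antibody's target, stood at 0.297 ± 0.263 CPM under PBS and 0.43 ± 0.103 CPM after ADC and was not called. PGR was at 0, and DSP, CDH1 and PTGDS had group means of at most 0.0426 CPM, so most of these markers were low or absent. Of 12 leukocyte markers 7 were at 0, including CD3E, and the list summed to 0.545 to 2.64 CPM under PBS and 2.02 to 3.01 CPM after ADC. The 5 endothelial markers summed to 1.48 to 3 and 3.25 to 4.88 CPM, with PECAM1 called higher (0.576 and 1.98 CPM). The 5 neuronal or glial markers summed to 50.6 to 58.7 and 52.9 to 57.1 CPM, mostly MBP (53.5 and 53.7 CPM), and SNAP25 was called higher (1.10 and 1.98 CPM). Their part in the member values was not tested.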

How the data were processed

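Poly(A) RNA of 10 CH157-MN libraries was sequenced, 5 per group, with groups taken from the titles and treatment labels. The authors deposited raw counts per gene, not normalised, in 1 table. Per the submitters' processing notes the build was hg38, and the aligners listed there, with no role stated, are HISAT, HISAT2 and TopHat2. Counting tool, strand setting and annotation were not given in the sources used here. The table's gene length column, also deposited, was used for CPM per kilobase. All 58735 identifiers were found in GENCODE release 29, with the same coordinates for all 249 members. Of counts between 2 and 21, 65.4% to 67.3% per library were even, so both mates of a pair may have been counted.

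The filter filterByExpr (at least 10 counts, total of 15) left 14504 genes, which were scaled with TMM and tested with edgeR 4.0.16 (quasi-likelihood, two-sided, R 4.3.3), adjusted over all tested genes at 0.05. SE was taken as |log2 fold change| over the root of the F statistic. The test was checked on simulated counts, where the share of false calls came out somewhat above the threshold and many of the smallest changes were missed. No libraries were merged, since chi-square over its degrees of freedom between libraries of a group was 5.18 to 16.5.

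GC content comes from the longest GENCODE transcript. Fingers (C, 2 to 4 residues, C, 12 residues, H, 3 to 5 residues, H) and the KRAB core (L, 3 residues, Q, E, H, R or K, 2 residues, L, an aromatic, C, H or S residue, 2 residues, VM, 1 residue, then E, D, K, V or N) were searched in the longest open reading frame of annotated coding transcripts, since no protein table was used here. Shared sequence is the share of 75-base transcript windows found in another gene. Promoter windows came from RefSeq, 217 of 249 members matching by symbol.

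Named genes were, by rule, up to 10 called members per direction by adjusted p, the 5 highest per kilobase, the smallest p of each position group with 5 or more tested genes, 10 members with known roles, and TRIM28, SETDB1 and the called corepressors. Other members named in the text were chosen after their values were seen. The members and lists were chosen with earlier results of these data known. Alternatives were RLE factors, library size, other filters, DESeq2 1.42.0, limma-voom (limma 3.58.1), a replicate block, halved counts, GC and length offsets, and each library left out.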

Additional observations from a re-analysis of the deposited data

Results flagged for a closer look

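Among 78 sets of 5 libraries (39 named genes in both groups), 10 held a library far from the other 4, where the gap to the nearest value exceeded 0.71 of the whole range. About 1 set in 20 would be picked by this criterion by chance.

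Of the members, ZNF677 had 10.1 CPM in ADC replicate 3, with the others at 10.9. ZNF569 had 8.73 CPM in PBS replicate 4, with the others between 6.23 and 6.81. ZNF772 had 12.6 CPM in ADC replicate 2, against 10.8 to 11. ZNF581 had 15.9 CPM in PBS replicate 2, against 10.4 to 11.5. ZNF507 had 28.8 CPM in ADC replicate 5, against 31.3 to 31.9, and ZNF473 had 6.10 CPM in that library, against 8.39 to 9.24. ZNF536 was at 0.0578 CPM in ADC replicate 1 and at 0 in the others. Of the corepressors, CBX5 had 210 CPM in PBS replicate 3 (others 199 to 202), FAM208A 154 CPM in ADC replicate 5 (others 173 to 181) and MORC2 50 CPM in ADC replicate 2 (others 45 to 45.7). ADC replicate 5 is the library in 3 of the 10 cases.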

How the results depend on the processing

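Across 20 alternatives the number of members that fell ranged from 6 to 16 and the number that rose from 1 to 3, against 10 and 2, and the median log2 fold change stayed below 0, from -0.11 to -0.06. All 10 that fell were also called with RLE factors, a mean of at least 1 CPM, DESeq2 (14 lower calls), halved counts and removal of GC and length trends (15 lower calls). With library size alone 7 fell and with limma-voom 9. Without single libraries, 6 to 12 members fell and 1 to 3 rose. The lowest count, 6, came without PBS replicate 3 and without ADC replicate 5. With no filter on low counts 1 member rose, ZNF677 being lost. Among members with at most 5% shared windows, an alternative chosen after seeing the data, 1 rose and 8 fell. Over all genes, library size alone gave 1835 higher and 1063 lower calls, or 63.3% higher instead of 51.8%. Removal of GC and length trends gave 2200 lower and 1396 higher calls, or 38.8% higher, and with the replicate block 2287 lower and 1443 higher. The cause was not tested.

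Same-numbered libraries did not deviate together (correlation -0.00717 to 0.0404), and 0 of 5 PBS libraries correlated best with its own number, so no pairing by number was seen. A weak pairing is not excluded, since counting noise could hide it. With the replicate block 3 members rose and 11 fell, of which 1 and 9 were among the original calls, with ZNF677 (adjusted p = 0.051) and ZNF772 (0.053) no longer called, and with block and GC and length trends 3 rose and 16 fell. Signs of uncalled members near 0 turned in places: ZNF317 to -0.01 with GC and length trends removed, with or without the block, and ZNF91 to 0.01 with library size alone. Without single libraries, ZNF317 ranged from -0.02 to 0.05, ZNF787 from -0.08 to 0.02, ZNF91 from -0.13 to 0.09, ZNF675 from -0.03 to 0.16, ZNF382 from -0.22 to 0.03 and ZNF331 from -0.20 to 0.02. Low counts limit the members under 1 CPM, of which 0 of 23 were called.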
